A study of Arabidopsis thaliana with 8 samples.

Results

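The 10 genes described here make salicylic acid, or control its making and its perception, and were measured in leaf RNA of Arabidopsis thaliana wild type and dcl1. The genes were taken by locus from the deposited count files, and all 10 were listed in at least 1 file, among 22546 loci in all. They are ICS1, EDS5 and PBS3 (synthesis), SARD1 and CBP60g (transcription factors), EDS1 and PAD4 (the EDS1 node), NPR1 (receptor), and ALD1 and FMO1 (the pipecolate branch). Each genotype was sequenced from libraries with high definition (HD) adapters, whose ligated ends are degenerate, and from libraries with standard Illumina adapters, which gave 4 groups of 2 libraries, 8 in all. The mutant lacks normal DICER-LIKE 1, which releases microRNAs from their hairpin precursors. The labels name neither the allele nor the age of the plants. All plants grew untreated at 25 °C by day and 18 °C by night with 16 hours of light, and mRNA was purified from total leaf RNA. The same RNA samples were used for both kinds of library, so the 8 libraries represent 4 RNA samples. Whether these came from separate plants is not labelled, and the p-values measure the spread between these samples only, which may be technical.

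Salicylic acid is the hormone of leaf defence against biotrophic pathogens. ICS1 makes isochorismate in the chloroplast, EDS5 exports it, and PBS3 joins it to glutamate, giving a conjugate that breaks down to salicylic acid. SARD1 and CBP60g are related transcription factors that bind the ICS1 promoter, and the lipase-like proteins EDS1 and PAD4 act together upstream. NPR1 binds salicylic acid and co-activates the response genes through TGA factors. ALD1 and FMO1 make pipecolic acid and then N-hydroxypipecolic acid, the mobile signal of systemic acquired resistance.

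The promoters of a synthesis gene (ICS1), a transcription factor (SARD1) and a pipecolate gene (FMO1), whose windows hold the motifs searched, and that of PBS3, whose fold change had the opposite sign, are shown for orientation. Each run is the 250 bases before the annotated start, read 5′ to 3′ on the gene's strand from the RefSeq TAIR10.1 genome, whose nuclear chromosomes carry the TAIR10 sequence. Capitals mark TTGAC (the core of the W-box bound by WRKY factors), TGACG (the core bound by TGA factors), GAAATTT (the motif of CBP60g and SARD1) and CGCG (the core bound by CAMTA factors), searched on both strands.
ICS1, chr1:28070045-28070294, plus strand: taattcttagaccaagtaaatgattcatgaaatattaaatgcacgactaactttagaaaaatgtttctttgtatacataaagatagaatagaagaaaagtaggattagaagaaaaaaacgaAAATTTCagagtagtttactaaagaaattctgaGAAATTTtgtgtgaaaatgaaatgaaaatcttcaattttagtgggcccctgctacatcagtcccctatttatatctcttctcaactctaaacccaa
SARD1, chr1:27749249-27749498, minus strand: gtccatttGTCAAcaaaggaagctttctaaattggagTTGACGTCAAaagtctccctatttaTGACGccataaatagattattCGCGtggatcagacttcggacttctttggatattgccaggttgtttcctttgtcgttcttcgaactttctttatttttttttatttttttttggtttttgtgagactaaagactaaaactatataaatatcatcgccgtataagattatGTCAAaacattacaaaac
FMO1, chr1:6653196-6653445, minus strand: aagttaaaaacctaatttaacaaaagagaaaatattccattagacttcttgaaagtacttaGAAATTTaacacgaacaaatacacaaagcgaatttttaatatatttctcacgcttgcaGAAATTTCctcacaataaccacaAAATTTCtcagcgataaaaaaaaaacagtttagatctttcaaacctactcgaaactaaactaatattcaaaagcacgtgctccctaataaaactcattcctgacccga
PBS3, chr5:4267206-4267455, plus strand: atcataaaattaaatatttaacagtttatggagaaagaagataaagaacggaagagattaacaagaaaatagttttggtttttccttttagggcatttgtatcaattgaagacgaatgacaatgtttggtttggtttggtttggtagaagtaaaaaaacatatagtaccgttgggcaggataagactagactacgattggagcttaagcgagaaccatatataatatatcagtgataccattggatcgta
In the SARD1 window, TGACG overlaps TTGAC within TTGACGTCAA, and in the FMO1 window the 8 letters GAAATTTC hold the motif on both strands. The letters GAAATTT were in the windows of ICS1, ALD1 and FMO1, 3 of the 10 genes, and in 12.5% of 27443 promoters of protein-coding genes of the same length. TTGAC was in 3 of the 10 windows (EDS5, EDS1 and SARD1), against 44.9% of all promoters. TGACG and CGCG were in the SARD1 window only among the 10, against 18.6% and 10.1% of all. The windows of PAD4, CBP60g and NPR1, like that of PBS3, held none of these motifs. A match is a run of letters and not a shown binding site.

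Library totals ran from 15772958 to 45929383 counts, and ribosomal RNA loci took 17.3% to 28.7% of them. The mutated gene, DCL1, was at 20.2 to 21.3 CPM (counts scaled to library size by TMM) in the wild-type libraries and at 21.2 to 25.7 CPM in the dcl1 libraries, and its difference did not pass the test, so its level does not check the labels. The 4 leaf markers RBCS1A, RCA, LHCB1.3 and CA1 summed to between 38123 and 52147 CPM in wild-type and between 38635 and 47854 CPM in dcl1 libraries. Both root markers had counts, and summed to 1.9 to 3.07 CPM in wild type and 1.53 to 3.16 CPM in dcl1. The flower markers summed to at most 1.58 CPM in any library, AP1 had 0 counts throughout, and of 3 seed markers CRC and OLEO1 had 0 counts. The wild-type libraries of replicate 1 stood apart from those of replicate 2 in salicylate-induced genes, with PR1 at 105 and 146 CPM against 44.9 and 56.7 CPM, so calls that changed without replicate 1 are given beside each result. In leaf RNA, fewer cells that express a gene and less RNA per cell cannot be told apart.

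Per kilobase of exon, the 10 genes spanned a wide range of levels in wild type. NPR1 led, at 18.7 ± 0.595 CPM per kilobase (SD over 2 RNA samples, HD and standard counts summed). PAD4 (12.2 ± 3.20), CBP60g (11 ± 0.780), EDS1 (10.1 ± 3.21), SARD1 (8.53 ± 2.16) and ICS1 (7.08 ± 1.66 CPM per kilobase) came next, and neighbours among these 5 differed by less than their summed SDs. EDS5 (2.91 ± 0.195) and PBS3 (2.69 ± 1.54 CPM per kilobase) were lower. ALD1 was at 1.51 ± 0.271 CPM per kilobase, and neither EDS5 and PBS3 nor PBS3 and ALD1 differed beyond their spread. FMO1 was the lowest, at 0.420 ± 0.210 CPM per kilobase. In dcl1, PBS3 moved up the order of levels, at 3.93 ± 0.0470 CPM per kilobase, to stand above ICS1 (2.73 ± 0.304) and SARD1 (2.04 ± 0.618).

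**Figure D1:**
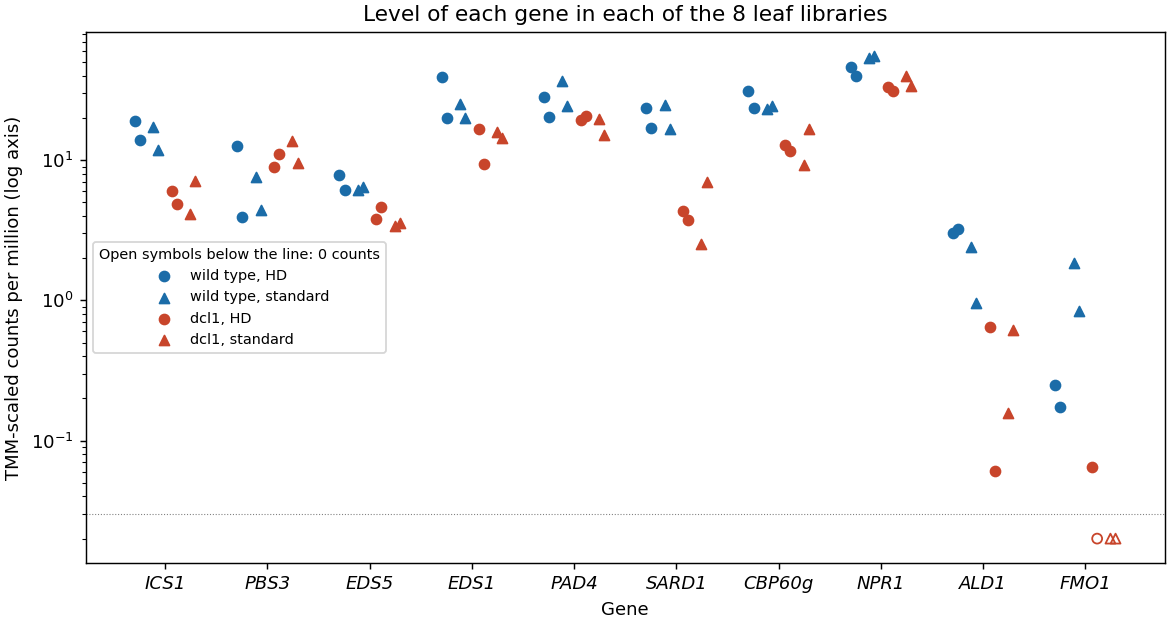
Level of each gene in TMM-scaled CPM (log axis) in each library, wild type in blue and dcl1 in red, HD adapters as circles and standard adapters as triangles, with libraries at 0 counts as open symbols below the dotted line. In 8 genes all 4 dcl1 libraries lie below all 4 wild-type libraries, while those of PBS3 and PAD4 overlap.

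The question was how the transcripts of this pathway differ in dcl1 leaves. On the summed counts of each RNA sample, 6 of the 10 genes fell in dcl1 and 0 rose: SARD1, ICS1, CBP60g, EDS1, NPR1 and ALD1. Of all 19711 loci tested, 4.55% were called lower and 4.3% higher, 8.85% in all. The 10 genes were chosen with earlier results of these data known, so an excess over all loci does not test the list. The folds ran from 1.43-fold lower (NPR1) to 5.01-fold lower (ALD1), and the median log2 fold change of the 10 genes was -0.86, beside 0.01 over all tested loci. The 4 genes that did not pass were PBS3, EDS5, PAD4 and FMO1. Of the 10 genes, 9 had an unadjusted p under 0.05, beside 4286 of all 19711 loci. PBS3 had the only positive fold change. In 8 genes every dcl1 library was below every wild-type library, against 8.17% of all loci. By summed samples 9 of 10 genes were in that order (25.6% of loci), by HD libraries 8 (23.3%) and by standard libraries 9 (24.5%). The test was edgeR's quasi-likelihood F test with Benjamini-Hochberg adjustment over all loci, at an adjusted p under 0.05. In 10 alternative runs (other settings, or 1 RNA sample left out), SARD1, ICS1 and CBP60g were called lower in all. EDS1 was called lower in 8, and NPR1 and ALD1 in 6 each. These calls of EDS1, NPR1 and ALD1 were lost without wild-type replicate 1 and without dcl1 replicate 2. Of the genes that did not pass, PAD4 was called lower in 3 alternatives and FMO1 in 1. PBS3 was called higher in 1, without wild-type replicate 1.

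The transcription factors held the largest well-counted difference. SARD1 (AT1G73805, chromosome 1, 27744790 to 27749248, minus strand) was at 23.6 and 16.9 CPM in the wild-type HD libraries and at 24.8 and 16.7 CPM in the wild-type standard libraries. In dcl1 it was at 4.36 and 3.76 CPM with HD and at 2.54 and 6.97 CPM with standard adapters. The highest dcl1 library was below the lowest wild-type library. On summed counts SARD1 fell 4.18-fold (log2 fold change -2.07, SE 0.26, adjusted p = 6.33e-05), and the call held in all 10 alternatives, with log2 fold changes from -2.41 to -1.64. Of its exon sequence, 17.9% of 50-base words are shared with AT1G73790 on the opposite strand, and whether the counting used strand is not given in the sources used here. AT1G73790 itself had 30 to 179 counts a library and did not pass (log2 fold change -0.40, adjusted p = 0.63).

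CBP60g (AT5G26920, chromosome 5, 9475679 to 9478777, plus strand), the calmodulin-binding relative of SARD1, also fell. It was at 30.9, 23.7, 23.0 and 24.4 CPM in wild type (HD replicates 1 and 2, then standard replicates 1 and 2) and at 12.8, 11.7, 9.31 and 16.7 CPM in dcl1. The groups did not overlap. It fell 1.88-fold on summed counts (log2 fold change -0.91, SE 0.19, adjusted p = 0.00514) and was called in all 10 alternatives.

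Among the synthesis genes, ICS1 fell, EDS5 was lower without passing the test, and PBS3 was not lower. ICS1 (AT1G74710, chromosome 1, 28070295 to 28074177, plus strand), the committed enzyme, was at 19.1, 13.9, 17.1 and 11.8 CPM in wild type and at 6.0, 4.85, 4.13 and 7.12 CPM in dcl1, in the same order of libraries. The highest dcl1 library was below the lowest wild-type library. It fell 2.59-fold on summed counts (log2 fold change -1.38, SE 0.24, adjusted p = 0.00155) and was called in all 10 alternatives. EDS5 (AT4G39030, chromosome 4, 18185437 to 18189224, plus strand), the isochorismate exporter, was at 7.81, 6.09, 6.10 and 6.39 CPM in wild type and at 3.80, 4.61, 3.38 and 3.59 CPM in dcl1. These groups did not overlap either, but the difference did not pass the test over all loci (log2 fold change -0.78, SE 0.31, adjusted p = 0.147). EDS5 shares 9.8% of its 50-base words with AT4G39040 on the opposite strand, which had 755 to 2276 counts a library against 64 to 273 for EDS5.

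PBS3 (AT5G13320, chromosome 5, 4267456 to 4271064, plus strand), the conjugating enzyme after ICS1 and EDS5 in the route, had a pattern of its own. It was at 12.6 and 3.92 CPM in the wild-type HD libraries and at 7.59 and 4.45 CPM in the wild-type standard libraries. In dcl1 it was at 8.97, 11.1, 13.6 and 9.61 CPM. Wild-type HD replicate 1 lay within the range of the dcl1 libraries, and the other 3 wild-type libraries lay below it. Its difference did not pass on summed counts (log2 fold change 0.56, SE 0.32, adjusted p = 0.345). Without wild-type replicate 1, PBS3 was called higher (log2 fold change 1.29, adjusted p = 0.00357), and without wild-type replicate 2 it was at 0.04, so its value turned on which wild-type sample was used. It shares no 50-base words with another locus.

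**Figure D2:**
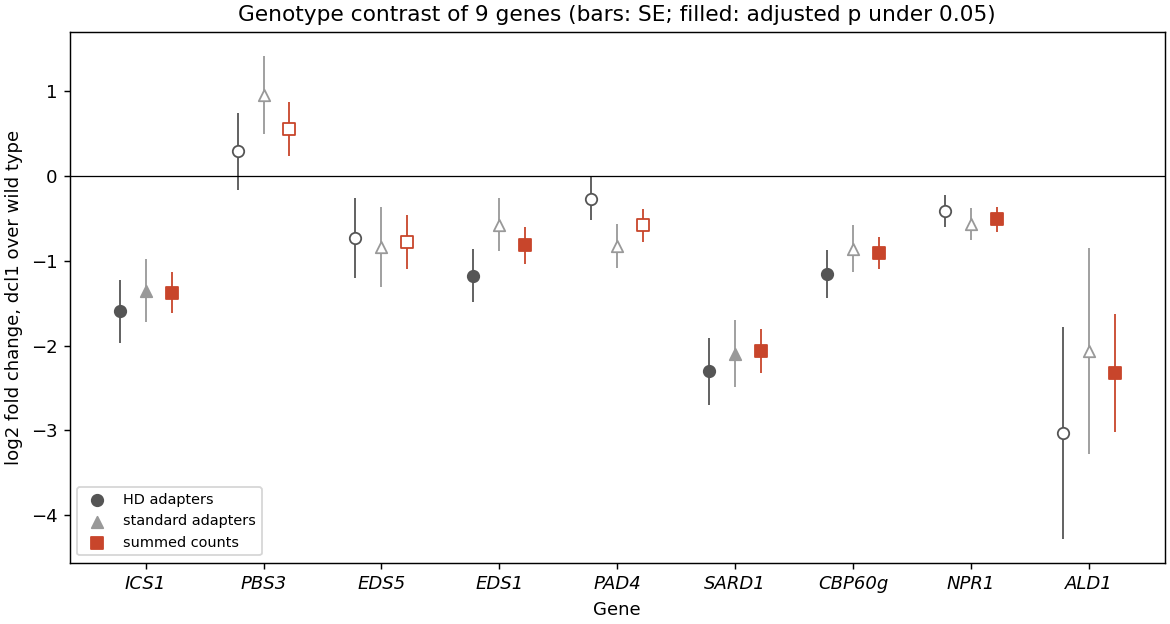
Log2 fold change (dcl1 over wild type) of 9 of the genes with HD adapters (circles), standard adapters (triangles) and summed counts (squares), with bars for the SE and filled symbols for an adjusted p under 0.05. SARD1 and ICS1 are filled in all 3 comparisons, and PBS3 is the gene above 0; FMO1 is left out because 3 of its 4 dcl1 libraries had 0 counts.

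Of the EDS1 node, EDS1 fell and PAD4 did not pass. EDS1 (AT3G48090, chromosome 3, 17755329 to 17758147, minus strand) was at 39.4, 20.02, 25.0 and 20.1 CPM in wild type and at 16.6, 9.34, 15.9 and 14.3 CPM in dcl1. The groups did not overlap, though wild-type HD replicate 1 lay far above the other wild-type libraries. EDS1 fell 1.76-fold on summed counts (log2 fold change -0.82, SE 0.22, adjusted p = 0.0251). The call ended without wild-type replicate 1 (log2 fold change -0.45, adjusted p = 0.297) or dcl1 replicate 2 (-0.65, adjusted p = 0.0745). The neighbouring locus AT3G48080, with which EDS1 shares 0.977% of its 50-base words, fell too (log2 fold change -1.66, adjusted p = 0.00457). PAD4 (AT3G52430, chromosome 3, 19431095 to 19434450, plus strand), the partner of EDS1, was at 28.1, 20.2, 37.0 and 24.5 CPM in wild type and at 19.4, 20.8, 19.6 and 15.1 CPM in dcl1. One dcl1 HD library was above the lowest wild-type library, so the groups overlapped. On summed counts the log2 fold change of PAD4 was -0.58 (SE 0.19, adjusted p = 0.0741), which passed in 3 of 10 alternatives. It was -0.84 without wild-type replicate 2 (adjusted p = 0.00372) and -0.29 without wild-type replicate 1 (adjusted p = 0.563).

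NPR1 (AT1G64280, chromosome 1, 23852748 to 23855658, minus strand), the salicylate receptor, had the smallest of the differences that passed. It was at 46.2, 40.01, 53.9 and 55.0 CPM in wild type and at 33.3, 31.4, 39.9 and 33.7 CPM in dcl1. The highest dcl1 library, at 39.9 CPM, came close to the lowest wild-type library, at 40.01 CPM. NPR1 fell 1.43-fold on summed counts (log2 fold change -0.51, SE 0.15, adjusted p = 0.0436). NPR1 shares 6.82% of its 50-base words with AT1G08667 on the opposite strand, which had 0 counts in every library. The call ended without any 1 of the 4 RNA samples, with adjusted p-values from 0.0566 (wild-type replicate 2 left out) to 0.225 (dcl1 replicate 2 left out).

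The genes of the pipecolate branch had few counts in dcl1. ALD1 (AT2G13810, chromosome 2, 5768417 to 5772266, plus strand), the aminotransferase that starts pipecolate synthesis, had 60, 130, 53 and 41 counts in the wild-type libraries and 30, 1, 3 and 20 counts in dcl1. That was 0.959 to 3.24 CPM in wild type and 0.0607 to 0.647 CPM in dcl1, without overlap. It fell 5.01-fold on summed counts (log2 fold change -2.33, SE 0.69, adjusted p = 0.0453), and the call ended without any 1 of the 4 RNA samples (adjusted p from 0.0586 to 0.236). FMO1 (AT1G19250, chromosome 1, 6650476 to 6653195, minus strand), the monooxygenase that hydroxylates pipecolic acid, had 5 and 7 counts in the wild-type HD libraries and 41 and 36 counts in the wild-type standard libraries. In dcl1 it had 3 counts in HD replicate 1 and 0 counts in the other 3 libraries. With standard adapters it was at least 20.4-fold lower in dcl1, taking 3 counts over the group as the limit of a count of 0. With HD adapters the level in wild type was 4.19 times that in dcl1, with an exact 95% counting interval from 1.13 to 23.1. Over both adapters it was 27.2 times that in dcl1 (8.997 to 134), an interval that covers counting error only. FMO1 did not pass edgeR's test on summed counts (adjusted p = 0.0724), but passed by DESeq2 (adjusted p = 0.0109).

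The same contrast was made within each adapter. With HD adapters 4 of the 10 genes were called lower (SARD1, ICS1, EDS1 and CBP60g) and 0 higher, where 2.26% of 19521 loci were called lower and 2.07% higher, 4.33% in all. The median log2 fold change of the 10 genes was -1.16, beside -0.01 over all loci. With standard adapters 2 were called lower (SARD1 and ICS1) and 0 higher, where 2.36% of loci were called lower and 1.87% higher, 4.23% in all, and the median was -0.85 beside 0.00 over all loci. For ICS1 the log2 fold change was -1.6 (SE 0.37, adjusted p = 0.0128) with HD and -1.35 (SE 0.37, adjusted p = 0.0375) with standard adapters. CBP60g was at -1.15 (SE 0.28, adjusted p = 0.0181) and -0.85 (SE 0.28, adjusted p = 0.0936), and EDS1 at -1.17 (SE 0.31, adjusted p = 0.0317) and -0.57 (SE 0.31, adjusted p = 0.389). PAD4 was at -0.27 with HD (adjusted p = 0.692) and -0.82 with standard adapters (adjusted p = 0.0789). PBS3 was at 0.29 (adjusted p = 0.823) and 0.96 (adjusted p = 0.308).

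The difference of the genotype contrast between the adapters was tested itself, and 0 of the 10 genes passed by edgeR and 0 by DESeq2. Of all loci 0.0256% were called by edgeR, 0.00512% with a positive and 0.0205% with a negative difference. Before adjustment 0 of the 10 genes were below 0.05, beside 618 of all 19521 loci. With the RNA sample as a block, since both kinds of library share RNA, 36 loci were called against 5 without it, and 0 of the 10 genes. So the adapters were not shown to differ for EDS1 or CBP60g, which passed with HD adapters alone. Of the HD calls, those of ICS1, EDS1 and CBP60g ended without wild-type HD replicate 1 (1 of 10 genes called, SARD1) or without dcl1 HD replicate 2 (1 of 10, SARD1). With standard adapters 1 gene, SARD1, was called once replicate 1 of either genotype was left out. The level itself was compared between the adapters over both genotypes. Of the 9 genes tested, 0 were called by edgeR and 0 by DESeq2. Of 18888 loci 0.503% were called by edgeR, 0.434% higher and 0.0688% lower with HD adapters. Before adjustment 0 of the 9 genes were below 0.05, beside 1530 of the 18888 loci. The log2 fold changes of the 9 genes, HD over standard, ran from -0.26 (NPR1) to 0.45 (ALD1). FMO1 had too few counts for that test, but its wild-type mean was 0.213 CPM with HD and 1.35 CPM with standard adapters. That difference was not tested. With the RNA sample as a block 232 loci were called against 95, and again 0 of the regulators.

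The rest of the salicylate pathway was read from 7 further lists, with the summed counts. These lists too were chosen with earlier results of these data known, so their counts are descriptions. The 7 other synthesis genes include ICS2 and the phenylalanine ammonia-lyases of the other route to salicylic acid. Of these 7, 0 passed by edgeR and 0 by DESeq2. An unadjusted p under 0.05 was found for 2 of the 7, beside 4286 of all 19711 loci. The log2 fold change of PAL1 was -0.53 (SE 0.19, adjusted p = 0.0961), and it passed in 3 of 10 alternatives. ICS2 was at 0.86 (SE 0.53, adjusted p = 0.384), with 0.551 to 1.87 CPM in wild type and 1.53 to 4.49 CPM in dcl1. Of the 7 tested genes of salicylate modification, 3 fell and 0 rose, beside 4.55% and 4.3% of all loci. DMR6, which hydroxylates salicylic acid, was at 78.7, 49.6, 88.8 and 52.0 CPM in wild type and at 11.8, 20.6, 13.8 and 13.0 CPM in dcl1, 4.79-fold lower (log2 fold change -2.26, SE 0.21, adjusted p = 2.83e-06). DLO1, its relative, fell 6.75-fold (log2 fold change -2.75, SE 0.53, adjusted p = 0.0027). This call was lost when wild-type replicate 1 was left out (-1.49, adjusted p = 0.0783) and by DESeq2 (adjusted p = 0.0782). The log2 fold change of DLO1 was -3.44 without wild-type replicate 2 and -3.69 without dcl1 replicate 1. UGT74F2, a salicylate glucosyltransferase, fell 1.82-fold (log2 fold change -0.86, SE 0.16, adjusted p = 0.00198).

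The next list of 8 genes held partners and helper receptors of the EDS1 node, and also NDR1, which is neither. Of these 8, 3 fell and 1 rose, beside 4.55% and 4.3% of all loci. The helper receptors ADR1 and ADR1-L1 moved in opposite directions. ADR1 was at 3.31, 4.09, 6.14 and 5.13 CPM in wild type and at 11.6, 12.1, 10.8 and 11.9 CPM in dcl1, 2.5-fold higher (log2 fold change 1.32, SE 0.25, adjusted p = 0.00279). ADR1-L1 was at 78.9 to 92.5 CPM in wild type and at 42.1 to 61.3 CPM in dcl1, 1.66-fold lower (log2 fold change -0.73, SE 0.16, adjusted p = 0.00681), a call that ended without dcl1 replicate 1 (-0.56, adjusted p = 0.0815). NDR1, a membrane protein of resistance signalling, fell 2.52-fold (log2 fold change -1.33, SE 0.38, adjusted p = 0.0357). Its call was lost when wild-type replicate 1 (-0.86, adjusted p = 0.288) or dcl1 replicate 2 (-0.95, adjusted p = 0.137) was left out. AT3G48080, given above beside EDS1, was the other that fell. ADR1-L1 shares 15.5% of its 50-base words with AT4G08785, and AT3G48080 shares 18.7% with AT3G48070, both on the opposite strand.

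In the lists of relatives of CBP60g and of NPR1, 0 genes were called on summed counts by edgeR. Of 9 calmodulin-binding relatives of CBP60g and CAMTA factors 0 were called by edgeR and 0 by DESeq2. Of the 9, 2 had an unadjusted p under 0.05, beside 4286 of all 19711 loci. Their log2 fold changes ran from -0.35 to 0.55, while SARD1 and CBP60g were at -2.07 and -0.91. CBP60f, at 0.55 (adjusted p = 0.0824 by edgeR), was called higher in 3 of 10 alternatives. Of 13 NPR1 relatives, NIMIN proteins and TGA factors 0 were called by edgeR and 1, NPR2, by DESeq2. NPR2 had 102 counts in wild-type HD replicate 1, 11 to 18 in the other wild-type libraries and at most 7 in dcl1 libraries. Its log2 fold change ran from -4.49 to -1.20 over the alternatives, so it rested largely on that library. Of the 13, 5 had an unadjusted p under 0.05, beside 4286 of all 19711 loci. NPR2 passed in 3 of 10 alternatives, and NIMIN2, which binds NPR1, was called lower with HD adapters (adjusted p = 0.031) but not on summed counts (adjusted p = 0.119). For NPR4, a salicylate receptor related to NPR1, the log2 fold change was -0.51 (SE 0.21, adjusted p = 0.164), near that of NPR1. AT5G52810, the one further locus listed for the pipecolate branch, fell 2.07-fold (log2 fold change -1.05, SE 0.26, adjusted p = 0.016), but did not pass once wild-type replicate 1 was left out (-0.80, adjusted p = 0.131). Of 8 genes induced by salicylic acid 7 could be tested, 5 fell and 0 rose, beside 4.55% and 4.3% of all loci, with a median log2 fold change of -1.89 beside 0.01 over all loci. WRKY54, a transcription factor, was at 10.1 to 16.6 CPM in wild type and at 2.15 to 4.64 CPM in dcl1, 3.72-fold lower (log2 fold change -1.9, SE 0.32, adjusted p = 0.000938). PR1, PR2 and PR5 fell by 2.63, 1.89 and 1.79 on the log2 scale. Without wild-type replicate 1 their log2 fold changes were -1.84, -1.45 and -1.19, and all 3 were still called.

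**Figure D3:**
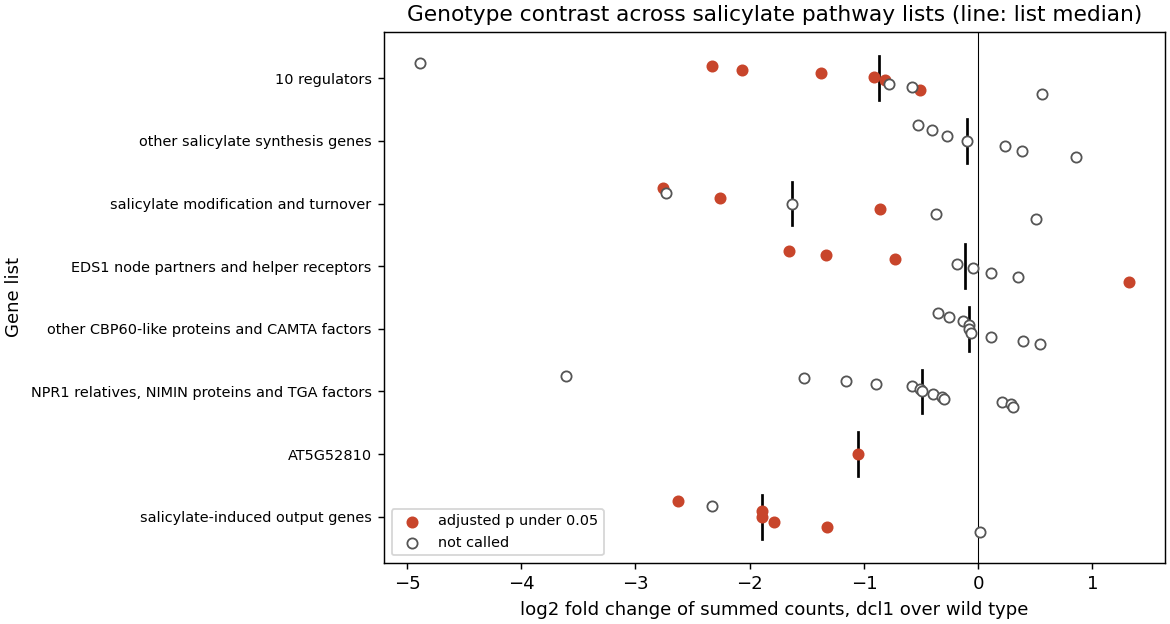
Log2 fold change of summed counts (dcl1 over wild type) for every tested gene of the 10 regulators and of 7 further pathway lists, filled where the adjusted p was under 0.05, with a line at each list's median. Of the regulators 6 of 10, of the modification genes 3 of 7 and of the output genes 5 of 7 are filled below 0, and the other CBP60-like and CAMTA genes lie between -0.35 and 0.55. The line of the modification genes is the value of MES9, named after its values were seen, which had 0 counts in 5 of 8 libraries; points below -2.6 other than DLO1 and PR1 have few counts, and their place depends on the fit's prior count.

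Within wild type the regulators varied between the RNA samples. Replicate 1 was above replicate 2 in 9 of 10 genes with HD adapters, where 51.1% of loci with a mean of at least 1 CPM were higher in replicate 1, and in 7 of 10 with standard adapters (50.9% of loci). The median log2 ratio of replicate 1 to replicate 2 was 0.47 with HD and 0.55 with standard adapters. PBS3 had the widest ratios with HD adapters (1.68), and ICS1, SARD1 and PAD4 had ratios of 0.46 to 0.49 with HD and 0.53 to 0.60 with standard adapters. PR1 had ratios of 1.22 and 1.36. In dcl1 the ratio was positive in 6 of 9 genes with HD adapters and in 4 of 9 with standard adapters, and for SARD1 it was 0.21 and -1.46. With both adapters replicate 1 was the higher wild-type sample for ICS1, PBS3, EDS1, PAD4, SARD1 and FMO1, the last on few counts. CBP60g, EDS5, NPR1 and ALD1 changed order between the adapters. No test was made of these ratios, since each compares 2 libraries.

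**Figure D4:**
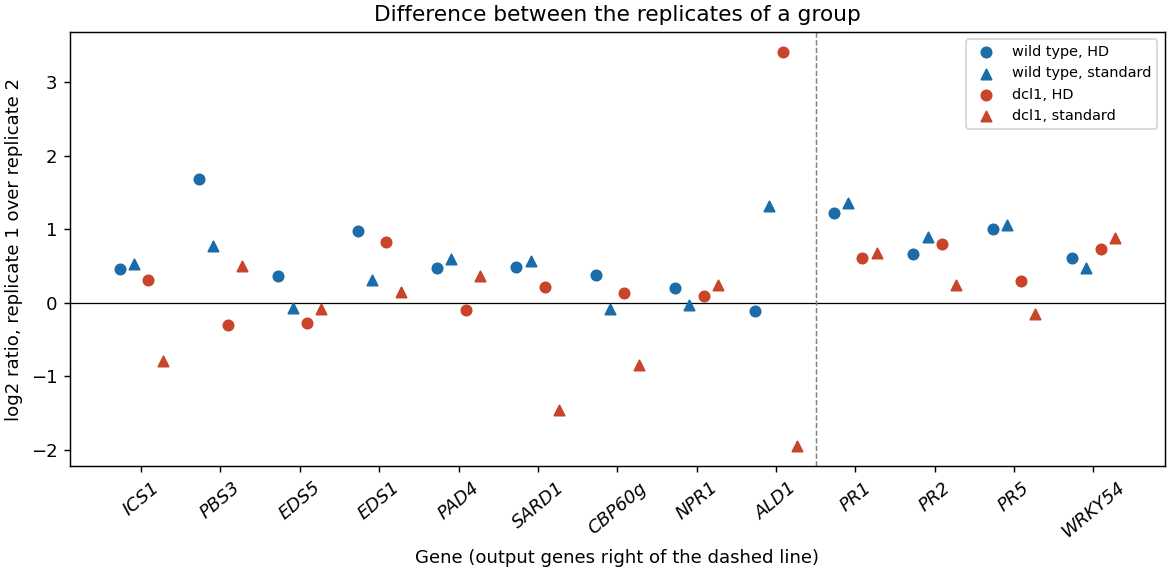
Log2 ratio of replicate 1 to replicate 2 within each group for 9 regulators and, right of the dashed line, 4 salicylate-induced genes, wild type in blue, dcl1 in red, HD as circles and standard as triangles. The wild-type points of ICS1, PBS3, EDS1, PAD4 and SARD1 and of the 4 induced genes are all above 0. The dcl1 points lie on both sides of 0 for ICS1, PBS3, PAD4, SARD1, CBP60g and ALD1, and for PR5 among the induced genes. The rest of the induced list is not plotted, and in it GRX480 was at -2.2 in wild type with standard adapters.

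Profiles over the 8 libraries were compared by the root mean square difference of log2 CPM centred on each gene's mean, where 0 is an identical profile. Among the regulators the nearest pairs were PAD4 with NPR1 (0.23) and ICS1 with CBP60g (0.26). PBS3 was the farthest from the rest, at 0.71 (PAD4) to 1.52 (SARD1). Over all loci with a mean of at least 5 CPM, the nearest to ICS1 was XTH7, a xyloglucan endotransglucosylase gene (0.18), and ALD1 had ICS1 as its second nearest (0.38). For SARD1 the nearest was AT2G18690 (0.19), and for EDS5 it was MSS1, a sugar transporter gene (0.08). The 8 libraries come from 4 RNA samples, so these values are descriptions.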

How the data were processed

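Leaf mRNA was sequenced from 4 RNA samples, each made into an HD and a standard library. The authors deposited whole-number counts per locus, and the genome build is TAIR10 per the submitters' processing notes. No source used here gives the aligner, the counter or the use of strand. Of 22546 loci, 22444 matched the RefSeq TAIR10.1 annotation. Loci passing filterByExpr were scaled by TMM and tested with the quasi-likelihood F test of edgeR 4.0.16 in R 4.3.3, with Benjamini-Hochberg adjustment over all loci and a threshold of 0.05. Contrasts within an adapter and their difference came from 1 fit of 8 libraries, the genotype contrast also from the 4 summed samples, and the adapter contrast from a genotype plus adapter model. The fits of 8 libraries had no term for the RNA sample unless a block is named, so libraries of the same RNA counted as separate. SEs are the log2 fold change over the root of F, so they are approximate. The fits were tested on simulated data. Alternatives were DESeq2 1.42.0, RLE scaling, no filter, no ribosomal RNA loci, each adapter alone, a replicate block, each library left out, and partner loci merged (added after the data were seen). Replicate numbers did not pair wild type with dcl1, while the study's design states that HD and standard libraries share RNA. The members and lists were chosen with earlier results of these data known. Named beside the 10 genes were DCL1, up to 4 loci a list with the smallest p, and the 3 loci nearest in profile. Profile distances used a pseudocount of 0.5 CPM. Intervals and floors cover counting error only.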

Additional observations from a re-analysis of the deposited data

How the results depend on the processing

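SARD1 was called lower in every alternative run in all 3 genotype comparisons, and ICS1 and CBP60g in every alternative on summed counts. The 3 comparisons use the same 8 libraries and are not independent. With libraries left out, the genes called lower numbered 1 to 4 with HD adapters (4 with all libraries), 1 to 3 with standard adapters (2) and 3 to 5 on summed counts (6), and those called higher numbered 0 to 1 on summed counts and 0 in the other comparisons. A left-out sample leaves 1 in its group, which is assumed to vary like the others. With no filter, 4 genes were called lower with standard adapters, where 1239 of 22546 loci were called in either direction. The replicate block, with numbers that are only shared between the genotypes, gave 4, 3 and 7 lower genes with HD adapters, standard adapters and summed counts. With it, 1114 and 1121 of 19521 loci and 2173 of 19711 loci were called in either direction. It added PAD4 on summed counts (log2 fold change -0.56, adjusted p = 0.0328). The correlation of replicate deviations between the genotypes was -0.0087 to 0.0023. Between the adapters it was 0.217 within wild type and 0.0879 within dcl1. Summed counts joined the HD and standard libraries of the same replicate number, a pairing that these low values do not establish. Signs turned with HD adapters for PAD4 (0.007419 without wild-type HD replicate 1, -0.485 without replicate 2) and PBS3 (-0.33 without wild-type HD replicate 2, 1.37 without replicate 1), and on summed counts for PAL3 (-0.03762 without dcl1 replicate 2, 0.4707 without replicate 1). The cause was not tested. Merging EDS5 with AT4G39040, which holds more counts, gave 0.17 with HD adapters, 0.25 with standard adapters and 0.20 on summed counts, an alternative chosen after seeing the data. Each group has 2 samples, the common biological coefficient of variation was 0.382, and ALD1 and FMO1 rest on few counts.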
